A study of Mus musculus with 2 samples.

Results

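Respiratory complex I is described here through the nuclear genes named for it: the 46 protein-coding nuclear genes whose symbol starts with Nduf, of 55536 genes listed. They were chosen by symbol and biotype alone, with no measured value. The set holds 36 subunits, 8 assembly factors with symbols starting Ndufaf, and Ndufa4 with its relative Ndufa4l2. The source was gastrocnemius, a fast mixed muscle of the calf, taken from B6CASTF1/J males aged 2 months and read by total RNA sequencing. B6CASTF1/J animals are the F1 cross of C57BL/6J with the wild-derived CAST/EiJ strain; autosomal genes have an allele of either parent, and a male's X chromosome and mitochondrial DNA come from the mother. The 2 libraries, replicate 1 and replicate 2, form a single group with no treatment named, and 300 ng of RNA went into each, together with ERCC spike-ins. The labels number them as biological replicates 1 and 2. Both carry the same donor entry, and the labels do not say that they came from separate animals. Biological and technical differences between them therefore cannot be told apart. P-values here compare the read counts of these 2 libraries and cover counting error only.

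Complex I takes electrons from NADH, passes them along a chain of iron-sulfur clusters to ubiquinone and pumps protons across the inner mitochondrial membrane. Its matrix arm holds the N module, where NADH is oxidised, and the Q module, where ubiquinone is reduced. Its membrane arm holds the proton pumps and is divided here into a proximal and a distal part. Core subunits, which carry out the chemistry, are encoded partly in the nucleus and partly in mitochondrial DNA, and the accessory subunits, all nuclear, surround them. Assembly factors build the enzyme and are not part of the finished complex. In muscle, oxidative fibres hold more mitochondria than fast glycolytic fibres, and gastrocnemius holds both.

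All 46 genes had reads in both libraries. Levels are given as TPM, an abundance unit scaled by transcript length and by library. Each library came with tables of 2 kinds, called first and second tables, and values are those of the first tables unless the second are named. The summed level of the 46 genes was 7028 TPM for replicate 1 and 8269 TPM for replicate 2, or 7648 ± 878 TPM (SD, n = 2). This was 1.72% and 2.14% of all TPM of protein-coding nuclear genes in replicate 1 and replicate 2. Total expected counts over genes were 42724520 in replicate 1 and 42280091 in replicate 2, and the members took 0.357% and 0.428% of them. In bulk tissue, fewer cells of a type and less RNA per cell cannot be told apart.

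The members formed 2 levels. The lowest subunit had 53.6 TPM in replicate 1 and 73.2 TPM in the other library. Assembly factors ranged from 5.25 to 15.7 TPM in replicate 1 and from 6.24 to 20.8 TPM in replicate 2, so that no assembly factor reached the lowest subunit in either library. The median subunit was 11.4 times the median assembly factor in replicate 1 and 13.1 times in replicate 2. The gap was also present in the second tables, where the highest assembly factor had 27.4 TPM and the lowest subunit 112 TPM in replicate 1, against 32.2 and 142 TPM in replicate 2. Although the finished enzyme holds most subunits in equal number, the mean levels of the 36 subunit RNAs had a coefficient of variation of 48.4%.

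**Figure D1:**
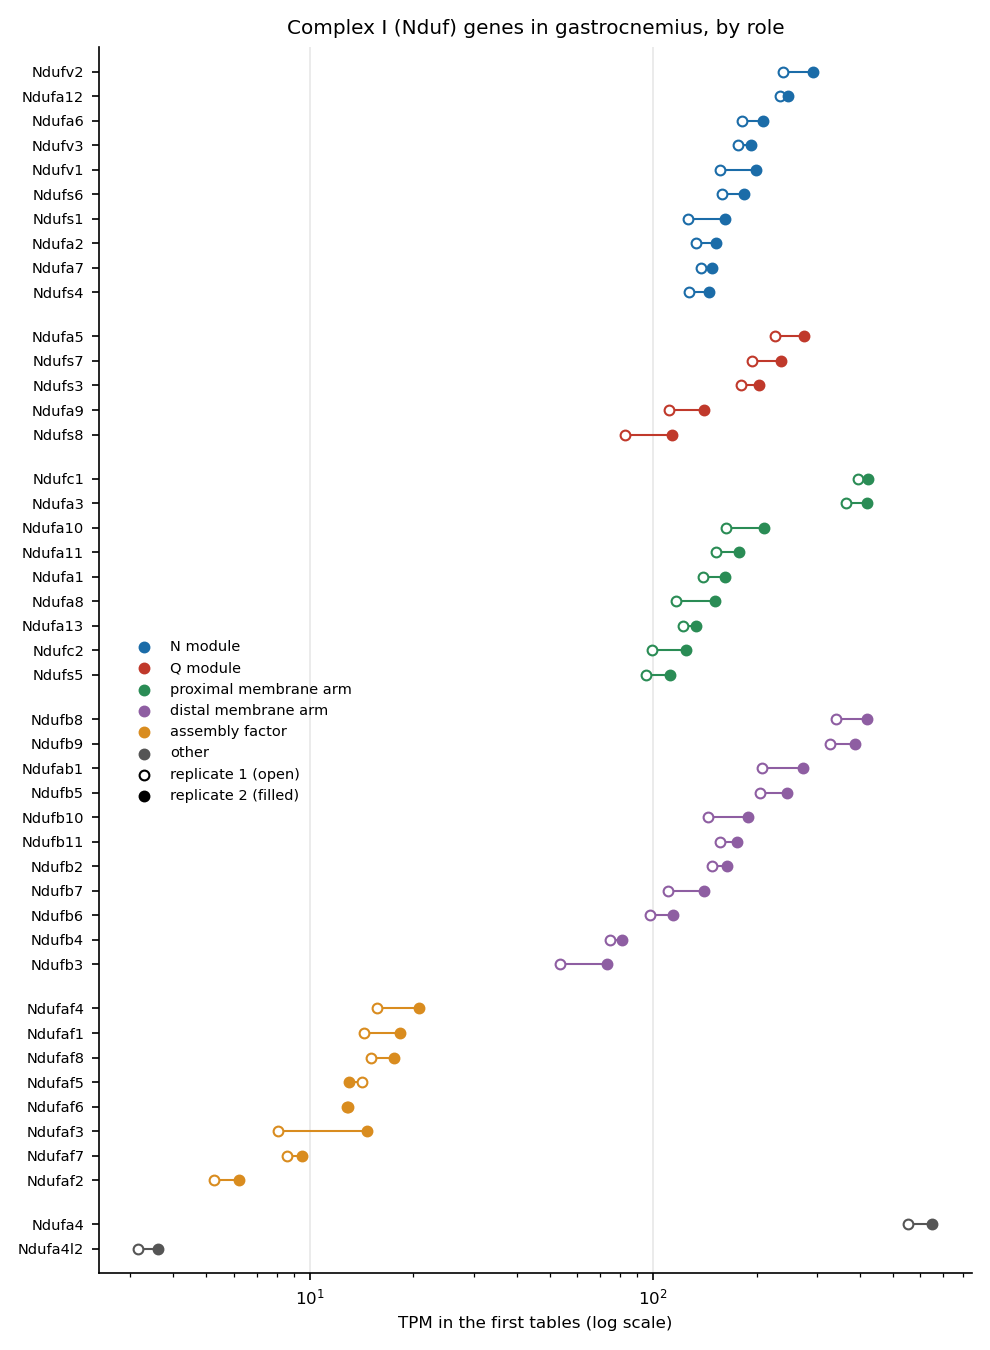
TPM of 45 of the 46 Nduf genes in the first tables (log scale), with replicate 1 as open and replicate 2 as filled points joined by a line, grouped by role. The 35 subunits shown lie between 53.6 and 423 TPM, the 8 assembly factors between 5.25 and 20.8 TPM, and Ndufa4 lies above and Ndufa4l2 below them all.

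The N module begins with the core subunits Ndufv1, Ndufv2 and Ndufs1. Ndufv1 (chr19:4007384-4012806 on mm10) binds NADH and the flavin that accepts its electrons, and had 156 TPM in replicate 1 and 199 TPM in replicate 2. Ndufv2 (chr17:66078638-66101559), its iron-sulfur partner, was the most abundant gene of this module, with 239 and 292 TPM. Ndufs1 (chr1:63143596-63176833), the largest subunit, holds several iron-sulfur clusters and had 127 and 161 TPM. Each of the 3 was higher in replicate 2, by log2 ratios of 0.38 for Ndufv1 (95% interval 0.33 to 0.43), 0.34 for Ndufv2 (0.29 to 0.38) and 0.39 for Ndufs1 (0.35 to 0.43).

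The 7 accessory genes of the N module lay in a narrow band apart from Ndufa12. Ndufs4 (chr13:114287795-114388258), whose loss in mice causes a fatal brain disease, had 127 TPM in replicate 1 and 146 TPM in replicate 2. Ndufs6, a zinc-binding subunit, had 159 and 184 TPM, and Ndufv3 had 177 and 193 TPM. Ndufa12, a relative of the chaperone Ndufaf2, had 234 and 247 TPM and the smallest log2 ratio of all subunits that passed the test, 0.14 (0.07 to 0.20). Ndufa2, of a thioredoxin-like fold, had 133 and 153 TPM, Ndufa6, a protein of the LYR family, 182 and 208 TPM, and Ndufa7 137 and 149 TPM. The module's mean levels had a coefficient of variation of 24.3%, against 51.7% in the Q module, 59.5% in the proximal and 55.8% in the distal membrane arm. In the second tables these values were 39.9%, 42.7%, 41.6% and 52.7%, with the N module lowest by a narrow margin.

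In the Q module, the core subunit Ndufs8 was low in level and large in change. Ndufs8 (chr19:3908863-3912774), which carries a pair of iron-sulfur clusters, had 82.6 TPM in replicate 1 and 114 TPM in replicate 2. Ndufs7 (chr10:80249121-80256794), which passes electrons to ubiquinone, had 194 and 236 TPM, and Ndufs3 (chr2:90894634-90904827), a core subunit with no cofactor, had 180 and 203 TPM, with log2 ratios of 0.33 for Ndufs7 and 0.22 for Ndufs3. Ndufs8 was higher in replicate 2 by a log2 ratio of 0.53 (0.44 to 0.61), an interval that lies above that of Ndufs7 (0.27 to 0.39) and that of Ndufs3 (0.16 to 0.28). The accessory subunit Ndufa5 had 227 and 274 TPM, and Ndufa9, which sits where the matrix arm meets the membrane, had 111 and 141 TPM.

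In the proximal membrane arm, Ndufc1 and Ndufa3 stood above the rest in the first tables. Ndufc1, a small membrane subunit, had 395 TPM in replicate 1 and 423 TPM in replicate 2. Ndufa3, another small membrane subunit, had 365 and 419 TPM. Their values overlap in these tables. In the second tables Ndufc1 stayed high, at 472 and 494 TPM, but Ndufa3 had 200.1 and 304 TPM, beside 245 and 284 TPM for Ndufa11. The other 7 genes lay between 95.1 and 210 TPM. Ndufa8 and Ndufs5, which face the space between the mitochondrial membranes and carry paired cysteine motifs, had 117 and 151 TPM and 95.1 and 112 TPM. Ndufa11 and Ndufa13, which cross the membrane, had 153 and 178 TPM and 122 and 133 TPM, and Ndufc2 had 99.5 and 125 TPM. Ndufa10, of the nucleoside kinase fold, had the largest log2 ratio of this arm at 0.45 (0.40 to 0.50), with 163 and 210 TPM, and Ndufc1 the smallest at 0.15 (0.07 to 0.22). Ndufa1 and, in the distal arm, Ndufb11 are the 2 members on the X chromosome, with 140 and 161 TPM and with 157 and 175 TPM.

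The distal membrane arm spanned the widest range of levels. Ndufb8 had 340 and 420 TPM, and Ndufb9, a protein of the LYR family, had 327 and 387 TPM. Ndufb5 had 205 and 246 TPM. Ndufb7 and Ndufb10, both with paired cysteines on the side away from the matrix, had 111 and 141 TPM and 144 and 189 TPM, and their log2 ratios of 0.40 and 0.44 were above the members' median. Ndufb2 and Ndufb6 had 148 and 165 TPM and 97.8 and 114 TPM. Ndufb3 was the lowest of all 36 subunits, with 53.6 and 73.2 TPM, and had the second-largest log2 ratio among them, 0.50 (0.39 to 0.61). Ndufab1, the mitochondrial acyl carrier protein, also serves fatty acid and lipoic acid synthesis and had 208 and 274 TPM, a log2 ratio of 0.47 (0.40 to 0.54). Ndufb4 had 74.7 and 81.0 TPM and was the only subunit that did not pass the test between the libraries, at an exact binomial adjusted p = 0.156. Its level and its test both depend on a near-identical pseudogene described further on. Ndufb1, a subunit of this arm in RefSeq, appears in the GENCODE M21 annotation as the noncoding gene Ndufb1-ps and so is not a member, and it had 83.9 and 90.1 TPM.

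The 8 assembly factors, measured from fewer reads, had log2 ratios from -0.11 to 0.60, against 0.11 to 0.53 for the subunits. Ndufaf1, a member of the membrane-bound assembly complex that builds the proximal arm, had 14.4 TPM in replicate 1 and 18.3 TPM in replicate 2. Ndufaf3 and Ndufaf4, which act together on the early Q module, had 8.06 and 14.6 TPM and 15.7 and 20.8 TPM. Their log2 ratios were the largest and the fourth-largest of all members, at 0.60 (0.34 to 0.87) for Ndufaf3, from 202 and 297 reads, and 0.49 (0.36 to 0.62) for Ndufaf4. The exons of Ndufaf3 overlap those of Impdh2 on the opposite strand, a gene with 1159 and 1100 reads (expected counts of 1159.07 and 1099.5), and the use of strand in counting, not given in the sources used here, decides whether reads of both could mix.

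Of the other 5 factors, only Ndufaf8 passed the test. Ndufaf5, which hydroxylates Ndufs7, had 14.2 and 13.0 TPM, and Ndufaf8, its binding partner, had 15.0 and 17.6 TPM. Ndufaf6, also needed for the Q module, had 12.9 and 12.8 TPM. Ndufaf7, an arginine methyltransferase, had 8.61 and 9.47 TPM, and Ndufaf2, a chaperone of the late steps, had 5.25 and 6.24 TPM. Ndufaf5 and Ndufaf6 were the only members with negative log2 ratios, of -0.08 (-0.27 to 0.10) and -0.11 (-0.32 to 0.10). Neither passed the test, nor did Ndufaf7 at 0.16 (-0.05 to 0.38) or Ndufaf2 at 0.31 (-0.06 to 0.69). Ndufaf8 passed narrowly at a log2 ratio of 0.34 (0.07 to 0.60) and an exact binomial adjusted p = 0.0424, which became 0.0637 with DESeq2 size factors, 0.0768 with total counts and 0.387 in the second tables, and was 0.0157 with ERCC totals.

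Ndufa12 and Ndufaf2 are related proteins, one a subunit and the other the chaperone that holds its place until it joins. Ndufa12 was 44.5 times Ndufaf2 in replicate 1 and 39.6 times in replicate 2, and 42.7 and 35.5 times in the second tables. Ndufa4, first counted in complex I and since placed with complex IV, was the most abundant member, with 552 and 650 TPM. Its relative Ndufa4l2, which hypoxia induces, was the least abundant, with 3.17 and 3.61 TPM from 91 and 97 reads. Ndufa4 was thus 174 times Ndufa4l2 in replicate 1 and 180.0 times in replicate 2. The exons of Ndufa4l2 overlap those of Shmt2 on the opposite strand, which had 592 and 645 reads.

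Between the libraries, 40 of the 46 members were higher in replicate 2, 0 were higher in replicate 1 and 6 did not pass the test (adjusted p under 0.05, exact conditional binomial test on TMM-scaled counts, adjusted over all genes). Of all 14827 genes tested, 14.4% were higher in replicate 2 and 11.7% were higher in replicate 1. The members' median log2 ratio was 0.28, against 0.00 for all genes tested. Most members are abundant, and small differences pass the test at high counts. The abundant protein-coding nuclear genes, 3383 with counts summing to 2000 or more, were therefore set beside them. Of these, 27.6% were higher in replicate 2 and their median log2 ratio was 0.00. Among them were 37 members, of which 36 were higher in replicate 2 and whose median was 0.28. This test compares these 2 libraries and has no replicate check.

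The differences were small in size. A level at least 25% higher in replicate 2, with the test passed, was reached by 18 members, against 8.45% of all genes tested. Among the abundant genes it was reached by 14 of the 37 members, against 10.4%. A fold of at least 1.5 was reached by Ndufaf3 alone. By role, the test was passed by 10 of 10 genes of the N module (median log2 ratio 0.25), 6 of 6 of the Q module (0.31), 9 of 9 of the proximal arm (0.28), 10 of 11 of the distal arm (0.29) and 4 of 8 assembly factors (0.32). The 7 nuclear core subunits had a median of 0.34 and the 29 accessory subunits 0.27. Of the 46 intervals, 20 held the members' median, 14 lay above it (among them Ndufs8, Ndufb3, Ndufab1 and Ndufa10) and 12 below it (among them Ndufc1, Ndufa12 and Ndufa13). The second tables gave the same numbers, 40 members higher in replicate 2 and 0 higher in replicate 1, beside 14.7% and 10.2% of the 15883 genes tested there. The members' median log2 ratio in those tables was 0.35.

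**Figure D2:**
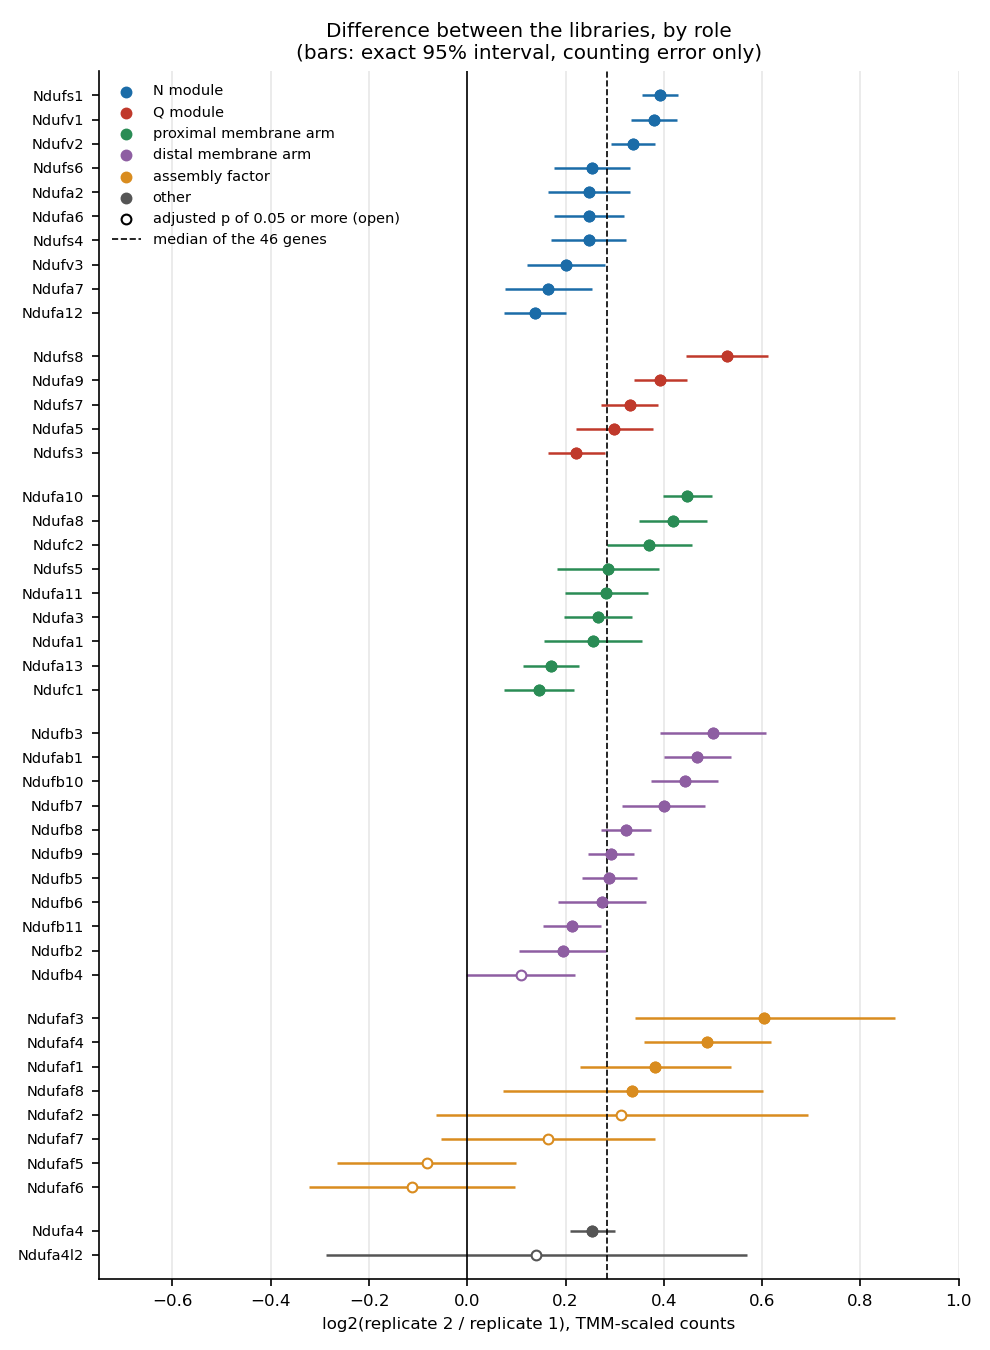
Log2 ratio of replicate 2 to replicate 1 for 45 of the Nduf genes by role, on TMM-scaled counts, with exact 95% intervals that cover counting error only; open points did not pass the test and the dashed line is the members' median of 0.28. The intervals of 39 of these genes lie above 0, and Ndufaf5 and Ndufaf6 are the 2 genes with a point below it.

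Markers of fibre type moved with this difference. The 8 slow fibre genes, the myosin Myh7 among them, were all higher in replicate 2, where they came to 3542 TPM against 1414 TPM in replicate 1. The myosins Myh2 and Myh1, of fast IIa and IIx fibres, summed to 1060 TPM against 2024 TPM, and both were higher in replicate 2. The 8 genes listed for IIb fibres and for fast fibres in general, Myh4 among them, summed to 74773 and 58729 TPM. All 8 were higher in replicate 1. The 3 tendon markers summed to 26.3 and 46.9 TPM and were all higher in replicate 2. The 4 endothelial markers summed to 36.5 and 40.6 TPM, and on TMM-scaled counts all 4 were higher in replicate 2. In TPM, Pecam1 among them was lower there, with 14.55 in replicate 1 and 14.15 in replicate 2. The 4 genes of muscle in general summed to 40880 and 34845 TPM, 3 of them higher in replicate 1. Other lists went both ways or the other way. Of 4 fibro-adipogenic markers, 1 was higher in replicate 2 and 3 in replicate 1. Of 7 mural markers, 2 were higher in replicate 2 and 2 in replicate 1. The macrophage and erythroid lists each had 1 marker higher in replicate 1 and 0 in replicate 2. The adipocyte, satellite cell and Schwann lists had 0 in either direction. No marker in any list was at 0 in both libraries. The part of these differences in the rise of the Nduf genes was not tested.

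The 7 core subunits encoded in mitochondrial DNA completed the enzyme at a far higher RNA level. Together mt-Nd1 to mt-Nd6 and mt-Nd4l came to 29957 TPM in replicate 1 and to 33560 TPM in replicate 2. Their median was 24.9 times that of the 7 nuclear core subunits in both libraries, and 16.2 and 14.1 times in the second tables. All 7 were higher in replicate 2, and the median of their log2 ratios was 0.22. Log2 ratios ran from 0.08 for mt-Nd3 to 0.60 for mt-Nd6, the one subunit encoded on the other strand of mitochondrial DNA. The second tables gave another order: mt-Nd3 had the largest log2 ratio there, 1.39, from 4113 and 10197 reads, mt-Nd4l had 0.80 and mt-Nd6 0.67. The levels of mt-Nd4l disagreed too, with 4992 and 5485 TPM in the first tables and 42.8 and 71.0 TPM in the second.

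Assembly factors without Nduf names shared the low level of those with them. Of the 12 listed, 11 were found and Coa1 was not analysed here. They ranged from 1.93 to 33.1 TPM in replicate 1 and from 1.95 to 35.0 TPM in replicate 2. Of the 11, 5 were higher in replicate 2 (Ecsit, Foxred1, Nubpl, Dmac2 and Tmem70) and 0 in replicate 1, beside 14.4% and 11.7% of all genes tested. Acad9, Ecsit, Tmem126b, Timmdc1 and Tmem186, which work with Ndufaf1, had log2 ratios of 0.19, 0.13, -0.01, 0.16 and 0.03, and only Ecsit among them passed. The median log2 ratio over the 11 was 0.16.

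The 2 kinds of table gave the same broad order of members but different levels for some. The summed TPM of the members was 11355 in replicate 1 and 13092 in replicate 2 in the second tables, above the first. Protein-coding nuclear genes held 66.9% and 60.7% of all TPM there, against 40.9% and 38.7% in the first tables. As a share of that TPM the members came to 1.70% and 2.16%, close to the values of the first tables. Across the 46 genes, mean levels in both kinds had a Spearman correlation of 0.88, and 0.77 across the 36 subunits, as a description over genes that share libraries. Of the 10 most abundant subunits, 8 were in both lists, but their order changed: Ndufc1, Ndufa3 and Ndufb8 were close together near the top of the first tables, whereas Ndufb8, Ndufb9 and Ndufv2 led the second, with means of 735, 596 and 568 TPM.

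After scaling to protein-coding nuclear TPM, 44 of the 46 genes were within 2-fold between the kinds of table and 2 were not. Ndufb4 in the second tables was 3.16 times its first-table level in replicate 1 and 3.32 times in replicate 2. Ndufa3 went the other way, at 0.335 and 0.462 of its first-table level. No member had a posterior standard deviation of its count, as deposited in the first tables, above 5% of the mean, and for 35 it was 0 in both libraries. For Ndufb4 it was 1.81% in both libraries, far below the difference between the tables.

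**Figure D3:**
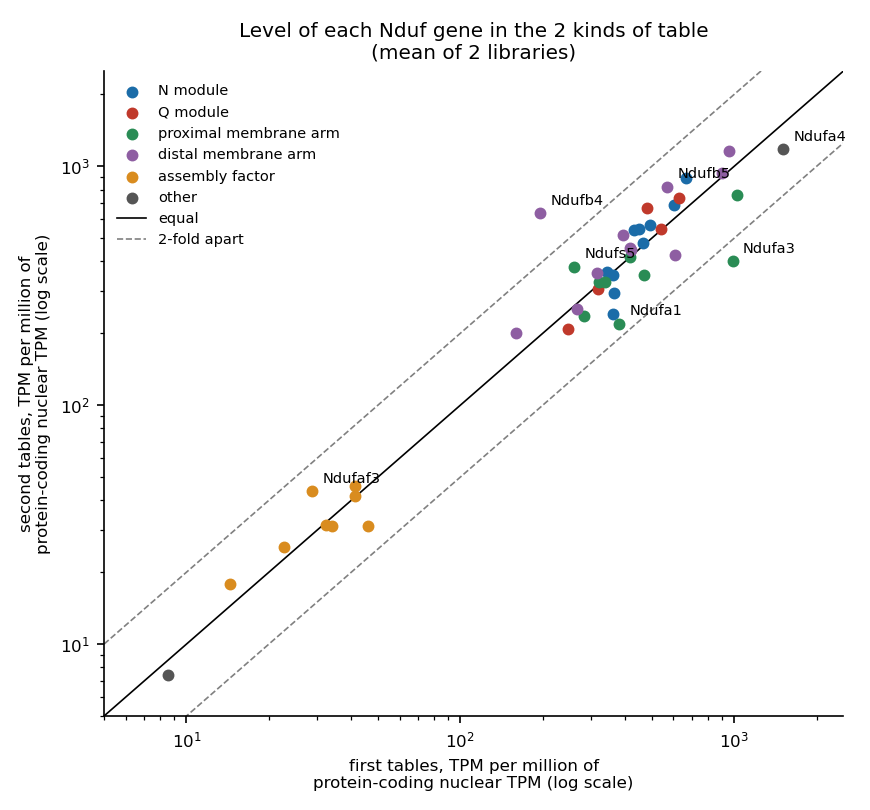
Level of 45 Nduf genes in the first (x) and second tables (y), as TPM rescaled to a sum of 1000000 over protein-coding nuclear genes, means of 2 libraries on log scales, with the line of equality and dashed lines at 2-fold. Ndufb4 lies above and Ndufa3 below the dashed lines.

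Several members have near-identical pseudogenes elsewhere in the genome, and reads that match both can be given to either. A search of the annotated transcripts found 9 such pseudogenes for 8 members (at least 95% identity over at least 150 nt and 80% of the pseudogene), of which 4 had at least 10 reads in each library. Ndufb4c (chr15:73809507-73809896, minus strand, mm10), a processed pseudogene in GENCODE M21, is 100% identical to Ndufb4 over its whole 390 nt. The first 120 bases of both coding stretches are shown to make this plain, with the start codon in capitals. No base in this stretch differs between the genes.
Ndufb4: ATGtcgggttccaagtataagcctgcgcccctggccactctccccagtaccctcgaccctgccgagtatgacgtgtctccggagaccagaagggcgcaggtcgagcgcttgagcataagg
Ndufb4c: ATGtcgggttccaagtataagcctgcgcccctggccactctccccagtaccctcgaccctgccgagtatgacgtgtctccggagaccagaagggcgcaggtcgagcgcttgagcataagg

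The first tables gave Ndufb4c more reads than Ndufb4 itself. Ndufb4 had 1293 and 1348 reads in replicate 1 and replicate 2, and Ndufb4c 2079 and 2147, or 61.7% and 61.4% of the sum. The second tables gave Ndufb4c 0 reads in both libraries and Ndufb4 1995 and 2154. Both genes together had 283 and 296 TPM in the first tables, against 74.7 and 81.0 TPM for Ndufb4 alone, the second-lowest subunit. With the pseudogene's reads added, a step chosen after the data were seen, the log2 ratio of Ndufb4 was 0.10 and passed the test (exact binomial adjusted p = 0.0186), as it also did without them under ERCC totals (0.0195) and in the second tables (0.000203). With these reads added, 41 of 46 members were higher in replicate 2.

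The next case is Ndufs5, whose pseudogene BC002163 (chr16:42955631-42955949, plus strand) differs at 2 of 319 aligned bases. Both differing bases lie in the coding stretch shown here (bases 298 to 417 of Ndufs5-203 and 51 to 170 of the pseudogene) and are in capitals.
Ndufs5: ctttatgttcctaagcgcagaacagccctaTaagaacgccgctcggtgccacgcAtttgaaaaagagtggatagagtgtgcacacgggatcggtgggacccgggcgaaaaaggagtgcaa
BC002163: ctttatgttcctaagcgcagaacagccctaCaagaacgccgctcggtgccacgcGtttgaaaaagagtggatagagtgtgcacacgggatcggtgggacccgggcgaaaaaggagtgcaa

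Reads that cover neither base cannot be told apart. The first tables gave BC002163 495 and 500 reads (expected counts of 495.15 and 500.03) beside 1392 and 1642 for Ndufs5, or 26.2% and 23.3% of the sum, and the second tables gave it 0. Gm15920 (chr5:130188395-130188796), 99.5% identical to Ndufa12 over 402 nt, received reads in both kinds of table: 13.9% and 13.3% of the sum in the first and 8.86% and 9.05% in the second. Gm4459 (chr7:139659688-139660155) differs from Ndufab1 at 1 of 468 bases. It took 3.04% and 2.54% of the sum in the first tables but 13.8% and 16.8% in the second. For each of these 4 pairs, the share given to the pseudogene differed more between kinds of table than between libraries. Reads of the CAST and B6 alleles were not separated.

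**Figure D4:**
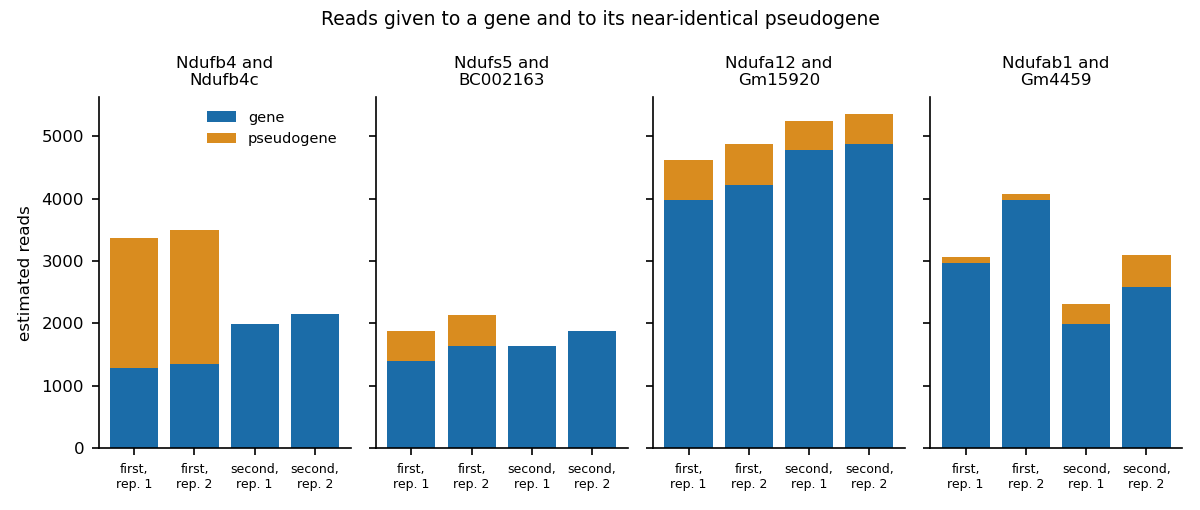
Estimated reads given to 4 members (blue) and to the near-identical pseudogene of each (orange), stacked, by kind of table and library. Ndufb4c holds 61.7% and 61.4% of the reads of its pair in the first tables and 0 in the second.

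Transcript choice was less certain than gene level. The 46 members have 226 annotated transcripts, from 1 to 14 each, and 6 members have 1. Of the other 40, the same transcript led in both kinds of table for 29 and a different one for 11, and in 7 a single transcript held at least 80% of TPM in both libraries and both kinds. For these 40, the share of the transcript that led in the first tables was followed in both kinds. It differed by a median of 1.68 percentage points between libraries in the first tables and 2.67 points in the second. Between the kinds of table in replicate 1 it differed by a median of 18.7 points. Some members were exceptions: the share of Ndufs6-201 was 68.0% and 42.4% and that of Ndufs5-201 34.9% and 59.0% in the 2 libraries of the second tables.

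Ndufv3 was one of the 7 with a settled structure. Ndufv3-202, which joins exon 2 directly to the last exon, held 98.8% and 98.2% of the gene's TPM in the first tables and 98.3% and 98.4% in the second. Ndufv3-201, which includes a 1092 nt exon (chr17:31527310-31528401) and encodes the long form of the protein, held 0.904% and 1.59% in the first and 0.831% and 1.23% in the second. The others with 1 transcript above 80% throughout were those of Ndufa6, Ndufaf5, Ndufb6, Ndufb7, Ndufb9 and Ndufc2.

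In other members the leading transcript was not annotated as protein coding. Ndufs4-204, annotated for nonsense-mediated decay and with an added 50 nt exon (chr13:114387408-114387457), led Ndufs4 in both kinds of table, with 56.9% and 61.9% in the first and 60.9% and 49.8% in the second. Ndufa3-204, of the same class and 343 nt long, held 92.7% and 93.0% of Ndufa3 in the first tables but 0% and 24.4% in the second, where the retained-intron transcript Ndufa3-205 led with 58.6% and 44.3%. Ndufb4 was led in both kinds by Ndufb4-202, a retained-intron model that lacks the first coding exon, with 72.7% and 76.6% in the first tables and 92.2% and 94.2% in the second. In all, the leading transcript was protein coding for 38 of 46 members in the first tables and 36 in the second, and the median member had 95.5% and 94.8% of its TPM in protein-coding transcripts in the first and 96.9% and 95.4% in the second.

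Other members changed leader between the kinds of table. Ndufc1 was led by Ndufc1-203 (311 nt) with 61.1% and 62.8% in the first tables and by Ndufc1-202 (500 nt) with 96.7% and 96.9% in the second, where Ndufc1-203 was listed at 0. Ndufa4, Ndufaf8 and Ndufs8 changed leader too, from Ndufa4-204 to Ndufa4-205, from Ndufaf8-203 to Ndufaf8-202 and from Ndufs8-205 to Ndufs8-201. So did Ndufa7, Ndufa9, Ndufb2, Ndufs7, Ndufaf1 and Ndufaf7. Of the 13 members' transcripts shorter than 400 nt with at least 1 TPM in both first tables, 8 were listed at 0 in both second tables, against 10 of 101 of 400 nt or longer.

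**Figure D5:**
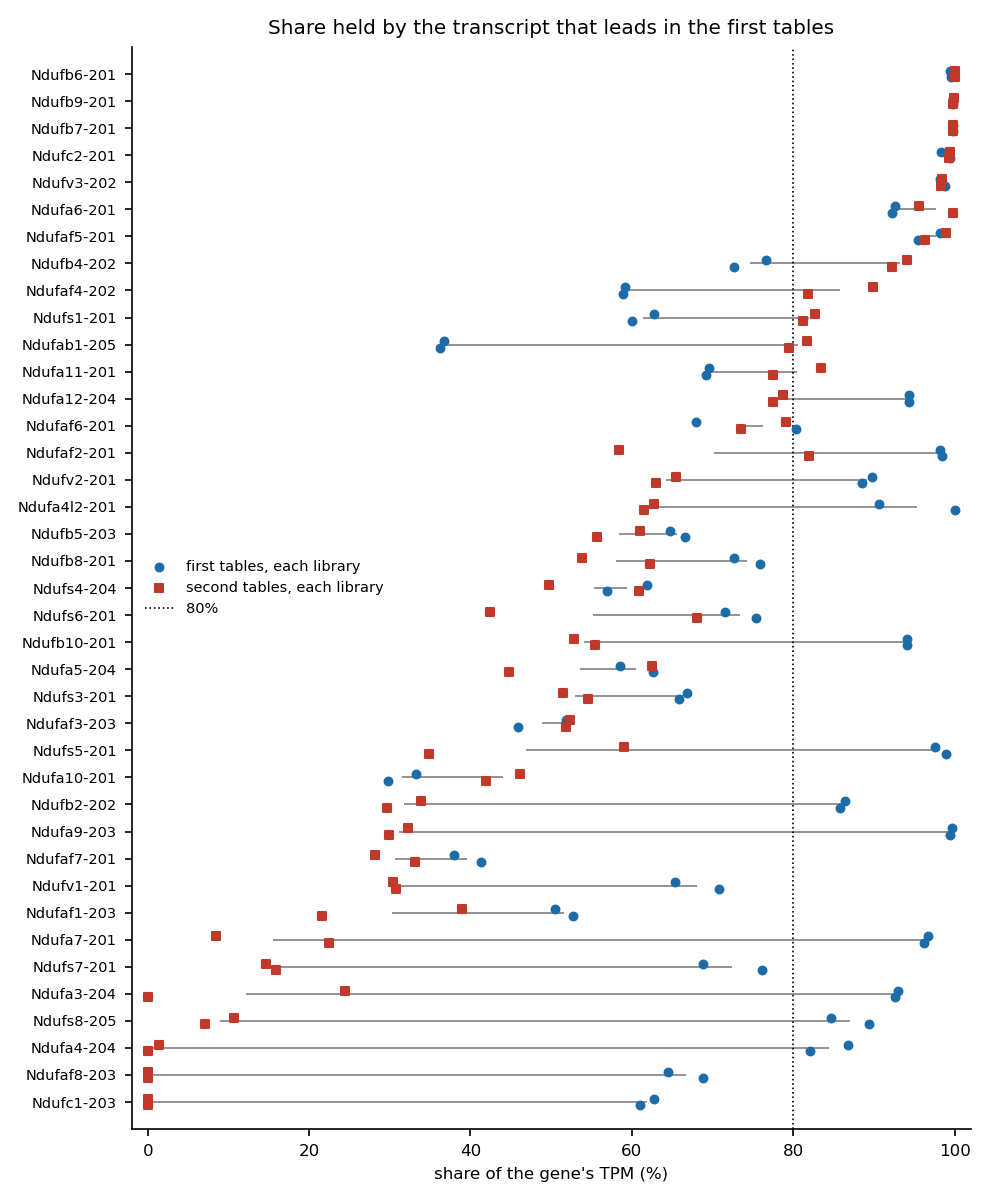
Share of a gene's TPM (%) held by the transcript that leads in the first tables, for 39 Nduf genes with several transcripts; blue circles are the first and red squares the second tables, 1 point for each library, and the dotted line is 80%. The libraries lie up to 12.5 points apart in the first tables (Ndufaf6-201) and up to 25.6 points apart in the second (Ndufs6-201). Ndufc1-203, Ndufaf8-203 and Ndufa4-204 fall from over 60% to near 0 in the second tables.

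The starts of these genes were searched for short motifs, most of which were found in a minority of them. Promoter sequences of 300 bases (250 before and 50 after the start, RefSeq, GRCm38.p6) were matched for 40 members of 46, as 42 promoters. The core letters bound by NRF-1, a regulator of respiratory genes, GCATGCGC on either strand, were found in 5 of 42 promoters (11.9%), against 2.71% of all 32851. Those of YY1, AAGATGG, were found in 8 (19.0% against 6.34%), and those of ETS factors, CCGGAAG, in 6 (14.3% against 8.86%). The nuclear receptor motif AAGGTCA was found in 3 (7.14% against 4.72%), GGGCGG in 22 (52.4% against 35.7%) and CCAAT in 14 (33.3% against 37.4%). These are counts of letters with no test, and a match is not a site of binding. The set of all promoters was not limited to genes with reads here.

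Stretches upstream of the RefSeq start show the NRF-1 letters in capitals in 4 of the 5 genes that hold them. The stretch of Ndufa8 lies inside that gene as annotated in GENCODE M21, whose start is further out. In Ndufa11 and Ndufaf4 the letters overlap a match on the other strand, since GCGCATGCGC reads the same on both. The stretches are chr15:82354322-82354419 (minus strand) for Ndufa6, chr2:36049339-36049391 (minus) for Ndufa8, chr17:56717659-56717756 (plus) for Ndufa11 and chr4:24897927-24898024 (plus) for Ndufaf4.
Ndufa6: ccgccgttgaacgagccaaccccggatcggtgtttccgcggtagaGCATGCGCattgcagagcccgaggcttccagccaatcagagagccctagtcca
Ndufa8: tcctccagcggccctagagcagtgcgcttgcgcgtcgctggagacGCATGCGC
Ndufa11: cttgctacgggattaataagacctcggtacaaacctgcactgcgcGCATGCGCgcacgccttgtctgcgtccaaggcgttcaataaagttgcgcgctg
Ndufaf4: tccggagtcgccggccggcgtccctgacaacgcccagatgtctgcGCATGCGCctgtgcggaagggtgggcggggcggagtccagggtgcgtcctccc

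The 5 genes with these letters, Ndufaf5 being the one not shown, were spread over the members' range of change. Their log2 ratios were 0.25 for Ndufa6, 0.42 for Ndufa8, 0.28 for Ndufa11, 0.49 for Ndufaf4 and -0.08 for Ndufaf5. In all 8 genes with the YY1 letters, these lay after the start and on the gene's strand. In 7 of the 8 (Ndufa3, Ndufa9, Ndufb8, Ndufc1, Ndufs4, Ndufs6 and Ndufs7) the ATG within AAGATGG was the annotated start codon. The exception was Ndufaf8. Where these letters lie in promoters of other genes was not examined, so this place may not be particular to the members. Ndufs3 held the ETS letters upstream of the RefSeq start (chr2:90904722-90904793, minus strand), in capitals here as an example of that group. Their reverse complement lay just after that start. In GENCODE M21 the stretch shown lies inside the gene.
Ndufs3: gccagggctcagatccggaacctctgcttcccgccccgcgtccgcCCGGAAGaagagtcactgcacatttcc

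Many members start beside another gene. Of the 46, 19 (41.3%) start within 500 bases of the start of a protein-coding gene on the opposite strand, against 13.1% of the 12665 protein-coding nuclear genes tested. The neighbours include genes of unlike function, such as Rps28 (a ribosomal protein, beside Ndufa7), Mrpl36 (of the mitochondrial ribosome, beside Ndufs6), Eef1b2 (an elongation factor, beside Ndufs1) and Morn5 (beside Ndufa8). The test included 17 of these neighbours: 5 were higher in replicate 2 (29.4%), 0 were higher in replicate 1, and their median log2 ratio was 0.08. The share higher in replicate 2 was 14.4% of all genes tested and 27.6% of the abundant protein-coding nuclear genes. Fam126b, beside Ndufb3, had a log2 ratio of 0.58 and Ndufb3 0.50, whereas Tatdn1, beside Ndufb9, had 0.00 and Ndufb9 0.29. Exons of 17 members overlap exons of a gene on the opposite strand, Kbtbd4 with Ndufs3 and Mrpl47 with Ndufb5 among them, and reads of such pairs may be mixed where strand was not used.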

How the data were processed

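Per the file headers, the first gene and transcript tables hold expected counts, TPM, the percent of a gene's TPM held by each transcript, and a posterior mean and SD per count, which the authors deposited and which are read here as scores. The second tables, per the file headers, hold estimated counts (expected counts in the sense used here) and TPM per transcript, and were summed to genes. The submitters' processing notes name the mm10 assembly and annotation M21. Programs, versions and strand settings: not given in the sources used here. Because the reference is of the B6 type, CAST reads can match less well.

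All 46 members passed the minimum summed count of 20. The numeric entries (26248, with 1 and 0 reads) name no gene and were left out, and ERCC RNAs took 0.468% and 0.442% of counts. Counts were rounded, scaled by TMM factors (edgeR 4.0.16, R 4.3.3) and compared with a two-sided exact binomial test conditional on their sum (scipy 1.17.1), Benjamini-Hochberg adjusted over all genes tested. Ratios are replicate 2 over replicate 1 with 0.5 added. Intervals are Clopper-Pearson at 95%, for counting error only. The test was tested on simulated data with counting noise only, for the comparison of these libraries over 14803 genes. It called 46 of 50 genes made 25% higher, 50 of 50 at 1.5-fold, and 9 of 14603 unchanged genes. The changed genes were drawn only from genes with high mean counts. Ndufa4l2, Ndufaf2, Ndufaf3, Ndufaf5, Ndufaf6, Ndufaf7 and Ndufaf8 lay below that limit, and detection at such lower counts was not simulated. Pseudogenes were sought with blastn 2.17.0 and motifs as exact letters. Alternatives included DESeq2 1.42.0 size factors, total counts, ERCC totals, the second tables and other minimum counts.

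The rule for members used symbol and biotype alone. That rule and the lists were set with earlier results of these data known. Results for 1 member are not reported here, although the counts and medians include it. Named with values are the other core subunits, assembly factors, the 5 highest and lowest members by TPM and by log2 ratio (summed count of at least 200), and those over 2-fold apart between tables. Of the members with no transcript above 80% throughout, transcript shares are given for some only.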

Additional observations from a re-analysis of the deposited data

How the results depend on the processing

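The number of members different between the libraries was 40, all higher in replicate 2. It stayed between 39 and 41, again all higher in replicate 2, with DESeq2 size factors, total counts, ERCC totals, the second tables, no minimum count, a minimum of 200 and the pseudogenes' reads added (this last chosen after seeing the data). It fell to 18 when a level at least 25% higher was also required. The median log2 ratio ranged from 0.22 on deposited TPM to 0.35 in the second tables, and ERCC totals moved the median of all genes by 0.05. The summed TPM of 7648 became 12224 in the second tables, 19270.2 in the first tables rescaled to a sum of 1000000 over protein-coding nuclear genes and 19264 in the second rescaled alike, and ranged from 7028 to 8269 when a replicate was left out. Single calls changed (log2 ratios in parentheses) for Ndufaf8, which lost its call with DESeq2 size factors (0.32), total counts (0.30) and the second tables (0.21), and for Ndufb4, which gained one with ERCC totals (0.16), the second tables (0.19) and the pseudogene's reads (0.10). The cause was not tested beyond those constructions. Mean TPM as deposited moved by more than the spread between libraries in the second tables for 42 of 46 members. The share of the transcript that led in the first tables did so for 34 of 40. The count for TPM includes the difference in scale between the kinds of table. After scaling to protein-coding nuclear TPM, the members' median ratio of second to first tables was 1.03 in replicate 1 and 1.04 in replicate 2. Leaving out a library leaves no ratio to test. No paired analysis was possible because the series holds 1 group. The intervals of 6 members reach below 0, from 91 and 97 reads for Ndufa4l2 to 1293 and 1348 for Ndufb4. For these members no difference was shown under the main settings, which does not show that there was none.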
